A study of Caenorhabditis elegans with 2 samples.

Results

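The genes described here encode the cytosolic and mitochondrial machinery that feeds and drives the ribosome, namely translation initiation factors, elongation factors and aminoacyl-tRNA synthetases. Members were chosen by name alone in the Ensembl annotation of the worm genome, assembly WBcel235. Names beginning eif-, iff-, ife-, ifg- or eef- were taken, as were names made of 1 letter followed by ars-1 or ars-2. This gave 70 of 19973 protein-coding genes, split by name into 33 initiation, 6 elongation and 31 synthetase genes. Initiation subunits with other names, such as egl-45 and inf-1, are not covered by the rule.

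Initiation factors bring the small ribosomal subunit, the initiator tRNA and the capped mRNA together. Elongation factors then deliver each charged tRNA and move the ribosome along the message. Aminoacyl-tRNA synthetases join each amino acid to its tRNA, and in animals separate gene copies often serve cytosol and mitochondria. These genes are widely expressed in growing larvae.

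The measured factor was SDZ-12, a zinc finger protein of the nematode Caenorhabditis elegans. All data come from 1 group, sampled in 2 biological replicates according to the labels, and there is no other condition. Both come from strain OP670, with the unc-119(tm4063) mutation and the array wgIs670, which carries sdz-12::TY1::EGFP::3xFLAG and a wild-type unc-119 gene. The fusion was thus expressed from a transgene, and its promoter is not described in the labels. Whole mixed-sex larvae at the L4 stage, 71 hours old, were used after synchronization by bleaching and L1 starvation. After sonication, the tagged protein was pulled down through its GFP with its chromatin. In whole larvae, strong occupancy in few cells and weak occupancy in many cannot be told apart.

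Calls were read from 4 deposited lists. The replicate 1, replicate 2 and pooled lists hold 30000 calls each, background included, and the optimal list holds 665 calls, all identical to the strongest pooled calls. Each call has a summit and the authors' signal value, which runs from 48.1 to 538 in the pooled list. It runs from 27.6 to 293 in replicate 1 and from 24.8 to 294 in replicate 2. Rank 1 is the strongest call of a list. For each gene the strongest call with its summit from 1000 bp upstream to 200 bp downstream of the 5' end was taken, negative positions being upstream. With 1 group, no test between conditions exists, and every share below describes these libraries. The controls used by the authors were not analysed here, so antibody background at these promoters was not tested.

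An optimal call lay in the promoter window of 5 of the 70 members (7.14%, 95% Wilson interval 3.09 to 15.7), against 1.61% of all protein-coding genes. The interval covers counting error over genes only. These were the synthetase gene ears-2, the initiation genes eif-3.C, eif-3.B and iff-2, and the elongation gene eef-1A.2. Members were chosen with earlier results of these data known. The interval is therefore a description and no test against the share of all genes. Each of the 5 summits lay nearer to the member's 5' end than to any other protein-coding 5' end. Those of ears-2 and iff-2 also fell in the window of a neighbour. The closest small RNA gene to any of them lay 658 bp away, at iff-2. Small RNA genes are here tRNA, snoRNA and snRNA genes, and other kinds were not searched.

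The bases at 4 of these summits, and at that of eef-1A.1, the close copy of eef-1A.2, are shown to let the base composition described further on be seen. They were read from the RefSeq copy of assembly WBcel235 in the direction of the gene. They cover 50 bp to each side of the summit, except that untranslated bases of ears-2 were left out. Capitals mark each CG dinucleotide.
ears-2, IV:390469-390541, minus strand: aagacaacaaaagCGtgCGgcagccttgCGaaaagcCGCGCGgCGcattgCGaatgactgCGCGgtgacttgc
iff-2, II:8561380-8561480, minus strand: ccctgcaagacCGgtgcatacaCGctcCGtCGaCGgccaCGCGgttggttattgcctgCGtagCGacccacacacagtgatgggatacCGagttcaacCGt
eef-1A.2, X:7823351-7823451, plus strand: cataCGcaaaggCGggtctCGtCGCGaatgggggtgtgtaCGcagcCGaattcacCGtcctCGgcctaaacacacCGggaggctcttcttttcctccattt
eif-3.B, II:14795124-14795224, plus strand: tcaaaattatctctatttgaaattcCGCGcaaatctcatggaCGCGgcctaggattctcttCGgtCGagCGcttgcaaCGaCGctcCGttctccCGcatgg
eef-1A.1, III:6972045-6972145, minus strand: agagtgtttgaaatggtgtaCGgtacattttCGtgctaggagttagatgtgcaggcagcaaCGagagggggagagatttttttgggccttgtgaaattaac

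The initiation genes were taken first. Of 33, 3 had an optimal call (9.09%, interval 3.14 to 23.6), and 19 had any pooled call (57.6%, against 31.6% of all protein-coding genes). eif-3.C encodes a subunit of eIF3, the large complex that holds the small ribosomal subunit ready for the mRNA. Its call (gene WBGene00001226, I:9976426-9979662) had a signal of 190 and rank 192 in the pooled list, with the summit at -270 bp. The signal was 101 at rank 215 in replicate 1 and 82.4 at rank 370 in replicate 2. Both replicates thus placed it within their 665 strongest calls.

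iff-2 (WBGene00002065, II:8559375-8561367) encodes a copy of eIF5A, a factor named for initiation that also acts when the ribosome stalls during elongation. Its summit at -63 bp had a pooled signal of 174 at rank 271, with 89.5 at rank 355 in replicate 1 and 77.9 at rank 452 in replicate 2. The divergent gene F54C9.14, with its end 935 bp away, also holds this summit in its window. The small RNA gene near it is the snoRNA gene F54C9.12. The other copy, iff-1, had a pooled signal of 48.7 at rank 29364, near the bottom of the list. In replicate 1 iff-1 reached 34.4 at rank 18030 and in replicate 2 it reached 44.5 at rank 5806. The strongest pooled summit in its window lay in a coding exon of its divergent neighbour cdk-1. The iff-2 call was stronger than the iff-1 call in each of the 3 lists.

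eif-3.B (WBGene00001225, II:14795404-14798235), another eIF3 subunit gene, was the weakest optimal member, with a signal of 142 at rank 571 and a summit at -230 bp. It had 76.7 at rank 644 in replicate 1 and 65.0 at rank 1027 in replicate 2, where it fell outside the 665 strongest. Of the 11 eIF3 subunit genes covered, 8 had a pooled call (31.6% of all protein-coding genes had one) and 2 an optimal one (1.61% of all), with pooled signals from 53.6 to 190. eif-3.J came next at 112 (rank 1595, -736 bp), followed by eif-3.H at 94.9 and eif-3.D at 93.3. The summits of eif-3.H and eif-3.D lay in 5' UTRs of the divergent genes C41D11.3 and R08D7.4, whose 5' ends were nearer. No list held a call at eif-3.F, eif-3.K or eif-3.L.

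A set of initiation genes had ranks that lay far apart in the replicates. By percentile among all protein-coding genes, where higher is stronger, eif-3.J was at 90.9 and eif-2Bgamma at 92.2 in replicate 1. In replicate 2 they were at 98.6 and 98.7, so neither was weak in its lower replicate. The gap was wider for eif-6, at 98.3 in replicate 1 and 75.6 in replicate 2. eif-3.J was at rank 6543 in replicate 1 and 579 in replicate 2, with the summits of the pooled list and replicate 1 lying 218 bp apart. eif-2Bgamma, which encodes a subunit of the exchange factor that recharges eIF2, was at rank 5473 in replicate 1 and 555 in replicate 2. Its pooled summit (signal 107, -756 bp) lay inside sup-39, annotated as an snRNA gene, and was the only member summit within 200 bp of a small RNA gene. eif-6, whose product keeps ribosomal subunits apart, went the other way, at rank 711 in replicate 1 and 22413 in replicate 2. The eif-6 summit at -969 bp, close to the edge of the window, lay in a coding exon of the proteasome gene pbs-2.

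The other initiation families had no optimal call. Of the 3 genes for eIF2, which carries the initiator tRNA, eif-2alpha alone had a call in any list. It had 93.2 in the pooled list, 60.1 in replicate 1 and 47.8 in replicate 2, with the pooled summit in a coding exon of its neighbour phb-1. Of the 5 eIF2B genes, eif-2Bgamma and eif-2Balpha had pooled calls, at 107 and 61.9. The eif-2Balpha summit lay nearer to the 5' end of mut-7. Of the 5 genes for the cap-binding protein eIF4E, 4 had pooled calls, against 31.6% of all genes. Signals at the 4 lay between 66.5 and 77.0, and the summit of the weakest, ife-1, lay 1 bp from the 5' end of dro-1. At ife-4 no list held a call. ifg-1, for the scaffold eIF4G, had a call of 31.2 in replicate 1 alone. In all, 12 of the 33 initiation genes had no call in any list, against 54.1% of all protein-coding genes.

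Calls were found at each of the 6 elongation genes in at least 1 list, and 5 had a pooled call (83.3%, against 31.6% of all genes). A single one, eef-1A.2, was in the optimal list (16.7%, interval 3.01 to 56.4). The genes eef-1A.1 and eef-1A.2 encode eEF1A, the factor that brings charged tRNA to the ribosome. eef-1A.2 (WBGene00001169, X:7823654-7825769) had a pooled signal of 152 at rank 433, with the summit at -253 bp in an exon of the noncoding RNA gene R03G5.8. It had 75.7 at rank 688 in replicate 1 and 75.6 at rank 524 in replicate 2. Replicate 1 therefore left it just outside its 665 strongest calls, which end at 76.2. eef-1A.1 (WBGene00001168, III:6970026-6971712) had 125 at rank 971, with 61.0 at rank 1900 in replicate 1 and 57.9 at rank 1757 in replicate 2. The copy on X was thus the stronger of the pair in all 3 lists. The eef-1A.1 summit at -383 bp lay 158 bp from the divergent gene rfc-4, closer than to eef-1A.1 itself.

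eef-2 encodes the factor that moves the ribosome forward. Its summit lay at 0 bp, with a pooled signal of 85.4 and 65.1 at rank 1374 in replicate 1, but replicate 2 had no call there. eef-1B.2, for an exchange factor subunit of eEF1A, had 78.9 in the pooled list at -62 bp, 46.6 in replicate 1 and 26.6 in replicate 2. eef-1G had 60.2 at 64 bp downstream of its 5' end, with 29.1 in replicate 1 and 29.5 in replicate 2. eef-1B.1 had a call of 39.0 in replicate 2 alone. Below the eEF1A pair, then, only eef-1B.2 and eef-1G had calls in all 3 lists.

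**Figure D1:**
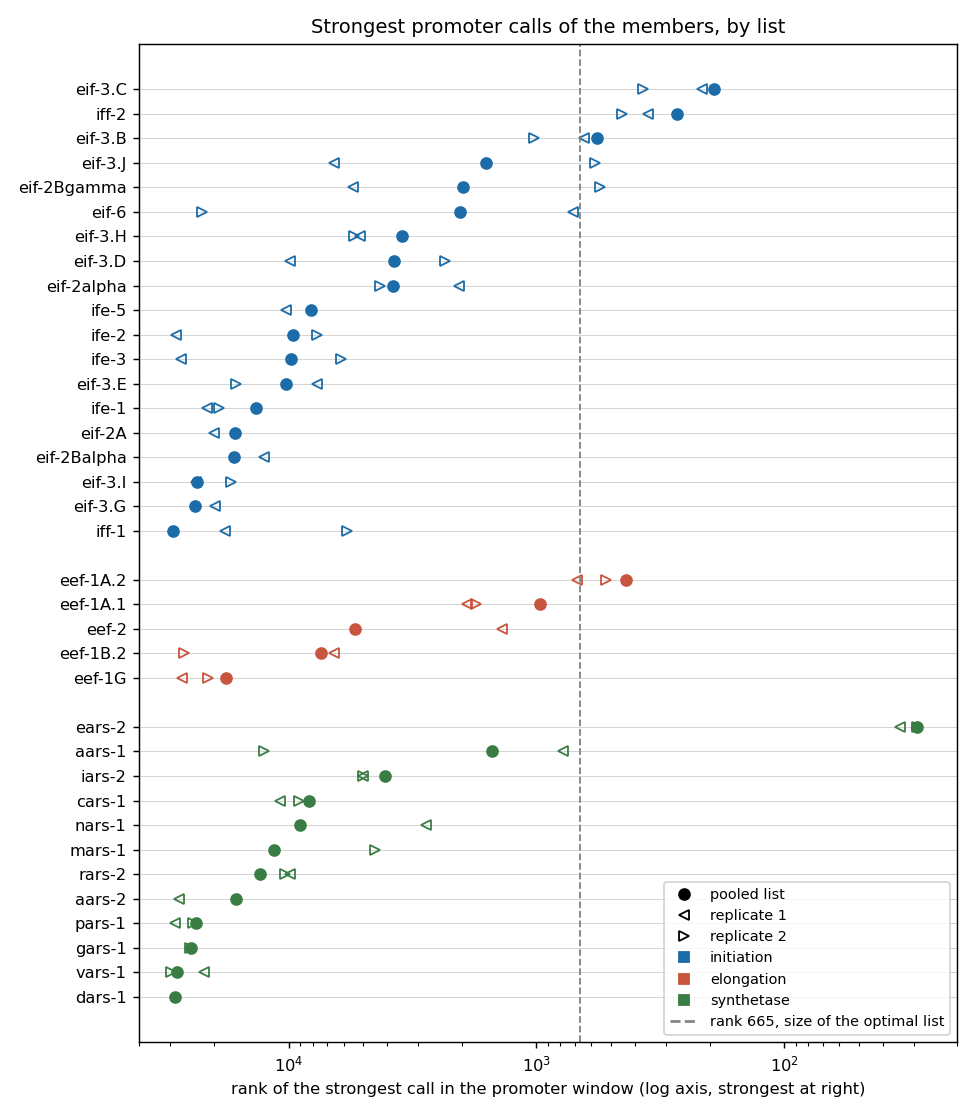
Rank of the strongest call in the promoter window for the 36 members with a pooled call, by list (log axis, strongest at right), with filled circles for the pooled list, left-pointing triangles for replicate 1 and right-pointing triangles for replicate 2. ears-2 stands alone at ranks 29 to 34, while eif-6, aars-1, eif-3.J and eif-2Bgamma lie far apart in the replicates.

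The synthetase genes held the strongest call of any member and the largest number of genes without a pooled call. ears-2 (WBGene00001338, IV:388686-390468) encodes a glutamyl-tRNA synthetase. Its signal was 307 at rank 29 in the pooled list, 157 at rank 34 in replicate 1 and 151 at rank 29 in replicate 2. The 3 summits lay at -23, -19 and -23 bp, so the position differed by 4 bp between replicates. The divergent gene uncp-18 starts 92 bp away and holds the same summit in its window, so the call cannot be assigned to 1 of the pair by position. The nearest small RNA gene lay 16888 bp away. Its counterpart ears-1 had no call in any list.

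No other synthetase gene was in the optimal list, which leaves 1 of 31 (3.23%, interval 0.572 to 16.2, against 1.61% of all genes). aars-1, for an alanyl-tRNA synthetase, was next, with 113 at rank 1514 in the pooled list. Its replicate values were far apart, at 73.7 (rank 779) in replicate 1 and 35.9 (rank 12513) in replicate 2. The summit lay 156 bp inside the gene, in its 5' UTR, and in the window of the divergent gene rga-1. iars-2, for an isoleucyl-tRNA synthetase, had 91.3 in the pooled list, 49.6 in replicate 1 and 46.2 in replicate 2. The iars-2 summit, at -266 bp, lay in a coding exon of C25A1.20, 125 bp from the 5' end of that gene. The remaining 9 with a pooled call ran from cars-1 at 76.7 and nars-1 at 74.9 down to dars-1 at 49.2. The nars-1 and dars-1 summits lay in coding exons of nduf-6 and ctr-9, whose 5' ends were nearer. In the pooled list 12 of 31 synthetase genes had a call (38.7%, against 31.6%), and 14 had none in any list (54.1% of all genes had none). Names ending in 1 had pooled calls at 8 of 20 genes and names ending in 2 at 4 of 11.

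The 3 classes were then set side by side. The optimal shares were 9.09%, 16.7% and 3.23% for initiation, elongation and synthetase genes, with intervals that overlap widely. They rest on 3, 1 and 1 genes, so no order of the classes is read from them, and no difference was tested. The share with any pooled call was 57.6%, 83.3% and 38.7% in the same order, against 31.6% of all protein-coding genes. Among genes that had one, the median pooled signal was 77.0, 85.4 and 68.6, against 67.0 over all protein-coding genes. These medians leave out the 34 members with no pooled call and describe the rest only. In replicate 1, 39 members had a call (55.7%, against 32.1%), and in replicate 2, 30 had one (42.9%, against 30.9%). Synthetase genes had a call in 14 of 31 cases in replicate 1 (45.2%) and in 9 of 31 in replicate 2 (29%), the second being near the background.

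Genes were also placed by percentile among all protein-coding genes, where 100 is the strongest call and genes with no call share 34.2. The median was 74.3 for initiation genes, 91.2 for elongation genes and 34.2 for synthetase genes, against 34.2 over all genes. The initiation median depended on replicate 1 and on the window. In replicate 2 alone it was 34.6, and with 500 bp upstream it was 39.4, in both cases the value of genes with no call. The elongation median was 82.4 in replicate 2 alone. With the 5' ends of all transcripts the synthetase median was 70.1 and the initiation median 75.1. In replicate 2 alone both were 34.6, so the gap between these classes rests on the list and window used. The strongest 10% of all genes by pooled signal held 9 of 33 initiation genes (27.3%), 4 of 6 elongation genes (66.7%) and 3 of 31 synthetase genes (9.68%). In replicate 1 these were 8 (24.2%), 4 (66.7%) and 4 (12.9%), and in replicate 2 they were 11 (33.3%), 2 (33.3%) and 3 (9.68%). In the strongest 10%, the higher share of elongation than initiation genes was therefore not seen in replicate 2. With any replicate 2 call counted, the share was 83.3% for elongation and 48.5% for initiation genes, against 30.9% of all genes. A median of 34.2 means only that most of the class had no call.

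**Figure D2:**
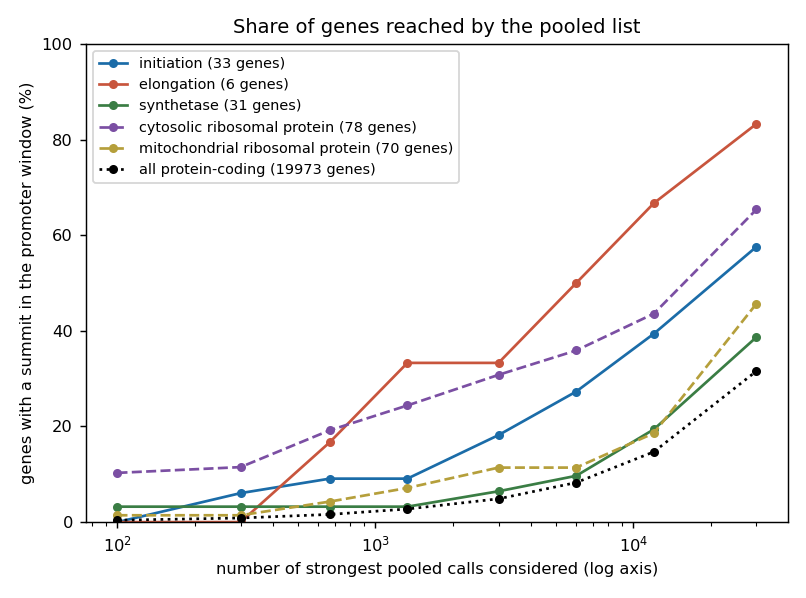
Share of genes with a summit in the promoter window (%) as more of the strongest pooled calls are considered (log axis), for the 3 classes, both kinds of ribosomal protein genes and all protein-coding genes. At 30000 calls elongation genes reach 83.3%, initiation genes 57.6%, synthetase genes 38.7% and all protein-coding genes 31.6%, and each step of the elongation line is 1 of 6 genes.

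Ribosomal protein genes are the nearest class by function. An optimal call lay at 5 of 70 members (7.14%), against 15 of 78 cytosolic (19.2%, interval 12 to 29.3) and 3 of 70 mitochondrial (4.29%, interval 1.47 to 11.9) ribosomal protein genes, chosen by the names rpl-, rps-, mrpl- and mrps-. The interval of the members, 3.09 to 15.7, overlaps both. Among the 100 strongest pooled calls were those of 1 member (1.43%), against 8 cytosolic (10.3%) and 1 mitochondrial (1.43%) ribosomal protein genes and 0.396% of all genes. None of these differences was tested.

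Genes that act beside the members came from a list of 27 names, of which 25 are in the annotation. An optimal call lay at 3 of them, against 1.61% of all protein-coding genes. These were ifet-1, for a protein that binds eIF4E and represses translation (signal 236, rank 87), the mitochondrial elongation factor gene tufm-2 (156, rank 398) and larp-1, for an RNA-binding regulator (151, rank 447). Each of the 3 summits was shared with a gene whose 5' end was nearer. The ifet-1 summit, at -515 bp, lay at -253 bp of the ribosomal protein gene rps-1. The tufm-2 summit, at -162 bp, lay at -9 bp of exoc-7, and the larp-1 summit, at -645 bp, lay at -344 bp of wip-1. Position therefore does not assign these calls to the listed genes. The call at ifet-1 was strong in both replicates, at rank 283 in replicate 1 and 43 in replicate 2. tufm-2 was at rank 1914 in replicate 1 and 279 in replicate 2. larp-1 was at rank 549 in replicate 1 and 671 in replicate 2. The eEF2 kinase gene efk-1, named here after its value was seen, had 121 (rank 1134). None of the 8 termination, recycling and rescue genes and neither of the synthetase genes outside the naming rule, fars-3 and glp-4, had an optimal call, beside 1.61% of all genes.

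How far the replicates agreed was examined next. Among their own 665 strongest calls, replicate 1 held 4 members (5.71%, against 1.56% of all genes) and replicate 2 held 6 (8.57%, against 1.49%). The members in both were ears-2, eif-3.C and iff-2 (4.29%, against 0.961%). Replicate 1 alone added eif-3.B, and replicate 2 alone added eef-1A.2, eif-2Bgamma and eif-3.J. Of 26 members with a call in both replicates, 22 had the 2 summits within 200 bp (84.6%), against 73.6% of the 3648 protein-coding genes with both. The ranks had a Spearman correlation of 0.659 over the 26 members, against 0.44 over all 3648 genes. It was higher in cytosolic (0.808) and mitochondrial (0.79) ribosomal protein genes, of which 80.6% and 58.3% had the summits within 200 bp. Genes of the same libraries are not independent replicates, so these values are descriptions. A further 8 members had a call in 1 replicate list and none in the pooled list. Of the 70 members, 34 had no pooled call and 26 had no call in any list. Of all 19973 protein-coding genes these were 13664 and 10803, so the 8 are not read as a trait of the members.

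**Figure D3:**
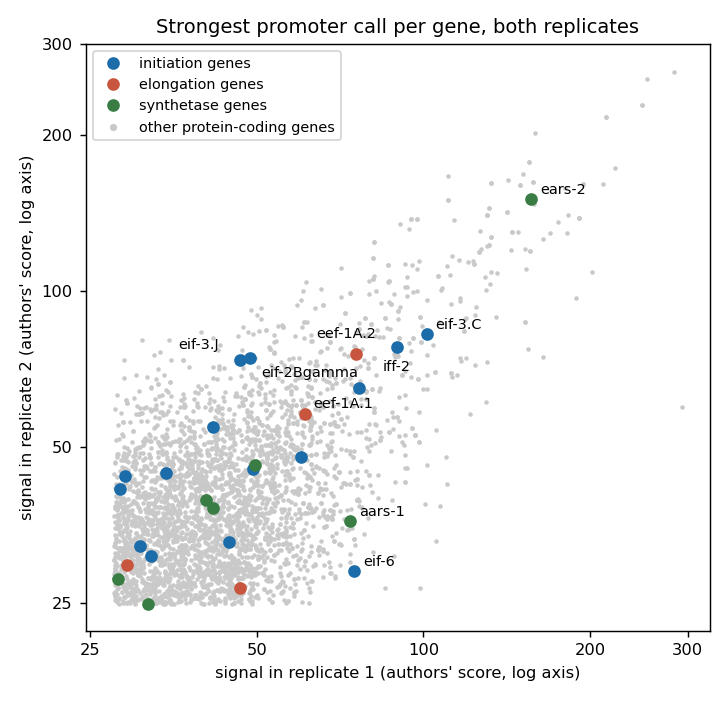
Signal of the strongest promoter call in replicate 1 (x, log axis) and replicate 2 (y, log axis) for members with a call in both, by class, over all other protein-coding genes in grey; the scales of the lists are not known to be equal. ears-2 lies at 157 and 151, the eEF1A pair lies near equal values, and eif-6 (74.9 and 28.7) and aars-1 (73.7 and 35.9) fall to the side of replicate 1.

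Summit positions were compared in the same way. Over the 36 members with a pooled call the median summit lay at -333.5 bp, against -331 bp over all protein-coding genes. It lay at -484 bp in initiation genes, -62 bp in elongation genes and -284 bp in synthetase genes. The 5 optimal members lay between -270 and -23 bp. The other members ranged over most of the window, from -969 bp at eif-6 to 185 bp at ife-3. Within 200 bp of the 5' end were 10 of 36 members (27.8%), against 39.5% of all genes. The summit lay nearest to the member's own 5' end at 25 of 36 (69.4%), against 80.5%, and 14 (38.9%) shared their summit with the window of another protein-coding gene, against 22.8%. Of the 36 summits 16 were intergenic, 9 lay in coding exons, 5 in 5' UTRs and 2 each in other exons, introns and 3' UTRs. At the members where another 5' end was nearer, position alone does not assign the call.

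**Figure D4:**
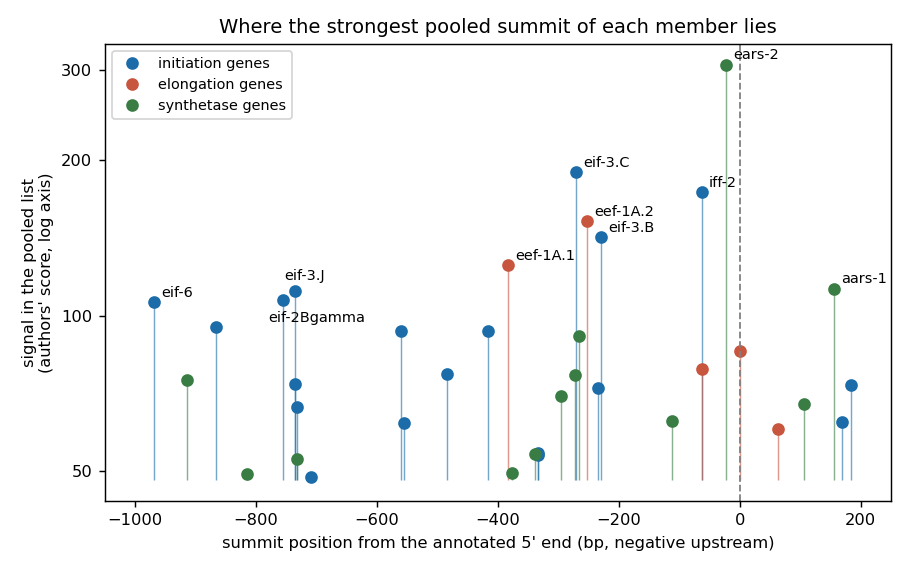
Position of the strongest pooled summit from the annotated 5' end (x, bp, negative upstream) and its pooled signal (y, authors' score, log axis) for the 36 members with a pooled call, coloured by class. The 5 optimal members sit between -270 and -23 bp, and the others spread from -969 to 185 bp.

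Base composition was not used to choose members. In the 101 bp at the summit, GC content averaged 54.9% ± 6.25 (SD, 5 windows) at the optimal members. It averaged 47.7% ± 9.07 at the 248 promoter summits of the optimal list and 42.5% ± 8.88 at all 5625 distinct promoter summits. Promoter summits are here and below the strongest pooled summit of each protein-coding gene, shared ones counted once. Weaker summits in the same windows are left out. The 31 other members had 40.2% ± 8.03. By gene the GC content was 60.4% at iff-2, 59.4% at ears-2, 57.4% at eef-1A.2, 51.5% at eif-3.B and 45.5% at eif-3.C. In each of the 5 the summit was richer in GC than sequence 300 bp to either side, which averaged 36.6% ± 8.26. The same held at 217 of the 248 promoter summits of the optimal list (87.5%), so this count does not set the members apart. The contrast was widest at iff-2, with 60.4% at the summit and 22.3% in the flanks. Among the 31 other members the summit was the richer in 20 (64.5%), against 71.1% over all promoter summits, which is near the background.

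CG dinucleotides, in capitals in the printed sequences, numbered 11 at iff-2, 11 at eif-3.B and 10 at eef-1A.2. At ears-2 the printed bases hold 10, and the full 101 bp, with the untranslated bases not shown, hold 15. The window of eif-3.C, which is not printed, holds 8. The mean was 11.0 ± 2.55 (SD, 5 windows), against 6.66 ± 3.48 at promoter summits of the optimal list and 4.61 ± 2.90 at all promoter summits. At eef-1A.1 there were 3. The count follows GC content in part, and it was chosen after the sequences had been read, so it supports nothing beyond these windows.

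**Figure D5:**
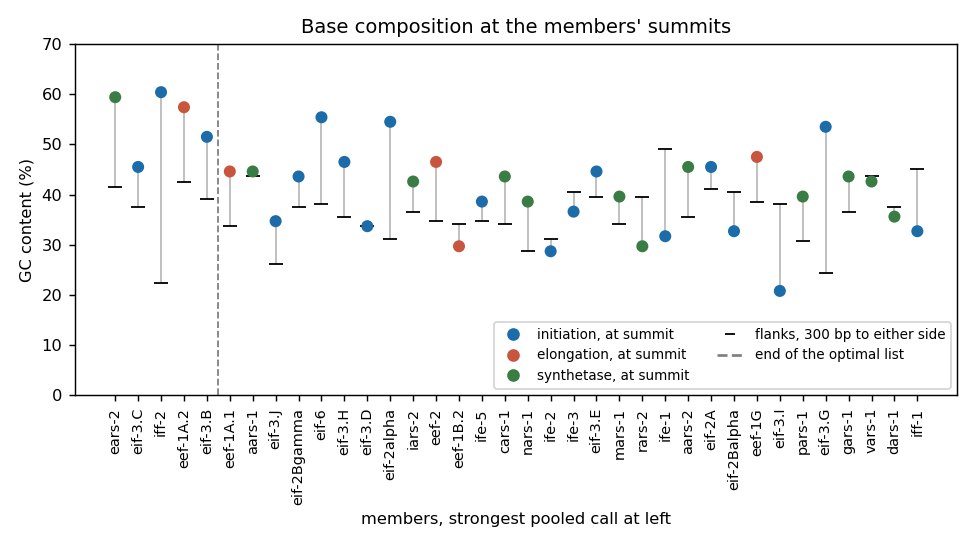
GC content (%) of the 101 bp at the strongest pooled summit of the 36 members, strongest at left, as circles coloured by class, with dashes for the flanks 300 bp to either side. The 5 members left of the dashed line lie between 45.5% and 60.4%, each above its flanks, and the rest scatter around 40.2%.

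A set of known sites was sought on both strands in the same 101 bp. The core of the tRNA B box (GGTTCGA) and an E box (CACGTG) were at 0 of 36 member summits. So were part of the EOR-1 site (GAGACG) and a GC box (GGGCGG). That allows a share of up to 8.33% each, with 3 divided by the number of windows as an approximate 95% bound. Over all 5625 promoter summits these words were at 1.26%, 2.29%, 6.15% and 4.43% in that order. The SKN-1 core (ATCAT or GTCAT) was at 11 of 36 (30.6%), against 30.4%, and among the optimal members at ears-2 alone, as ATGAC from -20 bp on. A GATA site (TGATAA), which can overlap the SKN-1 core, was at 3 (8.33%, against 6.68%) and a TATA box (TATAAA) at 1, eef-1B.2 (2.78%, against 7.11%). Runs of T (TTTTTT) were at 6 (16.7%, against 27.3%), and the splice acceptor word TTTCAG at 5 (13.9%, against 16.1%). At the 5 optimal members no other word of these was found, but a count of 0 in 5 windows limits the share little. The same bound gives 60% there and is rough for so few windows. A match is a description of the letters and not a bound site.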

How the data were processed

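Tagged SDZ-12 was measured by chromatin immunoprecipitation sequencing in 2 biological replicates of 1 group. Per text files that the authors deposited, they called intervals in each replicate and on pooled alignments, with a control, on assembly ce11, and derived the optimal list with IDR, the irreproducible discovery rate. Neither caller nor IDR threshold is given in the sources used here. Signal, as the authors deposited it, is a score per call whose scaling is not stated. Their −log10 q-value, also deposited, served to break ties only. Depth is unknown, since the lists hold no reads. Interval ends were checked against the assembly (0 past a chromosome end), and genes came from Ensembl release 115.

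Computed here were promoter windows, ranks, percentiles, Wilson intervals at 95% and motif shares, with Python 3.11.15, NumPy 2.4.6, SciPy 1.17.1, pandas 2.3.3 and matplotlib 3.10.9. Window assignment was tested on simulated data first. Members and lists were chosen with earlier results of these data known, so no list was tested. Named were all members with an optimal call, the 5 strongest of each class, those among the 665 strongest calls of a replicate, and close copies. Other members of the same families were named after their values were seen. Genes sharing a summit were all counted.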

Additional observations from a re-analysis of the deposited data

How the results depend on the processing

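The 5 members with an optimal call were the same genes with 500 or 2000 bp upstream, all transcript 5' ends, the nearest 5' end only, any overlap of the interval, or without calls near small RNA genes. The stronger 332 optimal calls held 3 members and 0 elongation genes, and the share of all genes was not computed for these calls. At the strongest 300 pooled calls it was 0.861%, against 3 members (4.29%). The 1330 strongest pooled calls held 6 members (8.57%, against 2.74% of all genes) and 2 elongation genes (33.3%), adding eef-1A.1. With iff- genes counted as elongation that class had 2. Leaving out 1 replicate gave 4 to 6 members, 3 to 4 initiation, 0 to 1 elongation and 1 synthetase genes, and the elongation call is lost without replicate 2. The median percentile moved more, since genes with no call share the lowest value by construction. That value is 34.2 as reported, 39.4 with 500 bp, 37.0 with the nearest end only, 34.0 in replicate 1 and 34.6 in replicate 2, so medians at those values mean that most genes of a class had no call. For members (69.2) it was 39.4 with 500 bp, 37.0 with the nearest end only and 34.6 to 70.5 leaving out a replicate. For initiation genes (74.3) it was 39.4, 37.0 and 34.6 to 74.1 in the same order. For elongation genes (91.2) it ran from 82.4 to 93.8 leaving out a replicate. For synthetase genes (34.2) it was 39.4 with 500 bp, 56.8 with 2000 bp, 70.1 with all transcript 5' ends, 37.0 with the nearest end only and 61.2 with any overlap, and 34.0 to 34.6 leaving out a replicate. Unknown depth limits what the absence of a call shows.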

Other observations

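Optimal calls in the body of a member, past the promoter window, were found at 2 genes. The share of all protein-coding genes with such a call was not computed, so the count does not set the members apart. In the elongation gene eef-1G the summit lay 1485 bp inside the gene in a coding exon (signal 152, rank 440), 286 bp from the snoRNA gene F17C11.14. The promoter call of eef-1G had a signal of 60.2. In fars-1, for a phenylalanyl-tRNA synthetase, the summit lay 1822 bp inside the gene (signal 158, rank 383), 39 bp from the snoRNA gene T08B2.13, and the promoter window held no pooled call. The part of the snoRNA genes in these calls was not tested.

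In values picked after they were seen, and outside the optimal list, 3 initiation genes had a GC content at the summit above 50%, namely eif-6 (55.4%, flanks 38.1%), eif-2alpha (54.5%, flanks 31.2%) and eif-3.G (53.5%, flanks 24.3%). Their pooled ranks were 2036, 3785 and 23949. The share of all promoter summits above 50% was not computed. Mean GC content was 42.5% ± 8.88 (SD) over all 5625 promoter summits, against 40.2% ± 8.03 at the 31 members outside the optimal list.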
